A study of Homo sapiens with 9 samples.

Results

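Of the 20199 peaks of the transcription factor MYC listed for 786-O cells, 7856 (38.9%, 95% interval 38.2 to 39.6) overlapped no peak of eGFP-tagged ZNF395 in either of the cell lines studied. These MYC peaks without a tagged peak were chosen by position alone: a MYC peak was kept if it had not even 1 bp in common with a tagged peak of 786-O or of A498. The other 12343 MYC peaks had such a peak. The share without one was 58.6% when only 50% reciprocal overlap counted as shared, and 58.7% with the upper 50% of each tagged list. The 5 deposited lists held 52875 peaks in all.

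786-O and A498 are established human cell lines of clear cell kidney cancer. The groups used were GFP ChIP-seq (chromatin immunoprecipitation and sequencing) of 786-O with an eGFP knock-in at ZNF395, the same of A498 with that knock-in, MYC ChIP-seq of parental 786-O, and GFP ChIP-seq of parental 786-O and of parental A498, which carry no tag. The tagged cells were made by electroporating a donor plasmid and a guide plasmid, and the labels do not say whether a single clone or a pool was grown. Each group was 1 library, so no difference below has a replicate check, and every interval is a 95% one, exact binomial for shares and from order statistics for medians, that covers counting error only. Labels conflict in places. The title and antibody (c-Myc) of the MYC library are at odds with its target label, P300, the name of a histone acetyltransferase. Likewise, 786-O is given as the cell line of every sample with A498 in its title. MYC and A498 here mean the libraries so titled.

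MYC binds DNA as a dimer with MAX, with a preference for the E-box motif. It occupies promoters of genes of growth, ribosome production and metabolism, and at high levels also many enhancers. ZNF395 is a zinc finger transcription factor that is highly expressed in clear cell renal carcinoma. A site in the MYC list alone is one where the MYC library passed its calling threshold and neither tagged library did. The lists give no signal below that threshold, so lack of a tagged peak is not lack of ZNF395.

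The MYC peaks without a tagged peak included strong ones. Each peak carries a score from the authors' peak caller, read as the −log10 of a p or q value, which ranks peaks within the MYC list. The highest of them, chr5:131794550-131795718 (hg19, as are all positions below), had a MYC score of 254.7 and was 74th of the whole MYC list. It was 1169 bp wide, and the nearest tagged peak, in 786-O, lay 2043 bp away. Within 50 kb of it there were 10 other MYC peaks and 7 tagged 786-O peaks, so this site stood among tagged sites without carrying a tagged peak itself.

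The next, chr2:202122639-202123551, had a score of 251.0 (rank 79) and lay 25429 bp from a tagged peak. The peak at chr2:100630198-100630801 scored 244.2 (rank 91) and stood alone: no other MYC peak and no tagged 786-O peak lay within 50 kb, and the nearest tagged peak was 57242 bp away. The peak at chr10:25305184-25306318 scored 228.0 (rank 113). It was the only one of the 15 highest that overlapped a GFP peak of parental 786-O, and that parental peak had a score of 10.3 (rank 924 of 3361). The peak at chr1:110162101-110163102 scored 213.2 and came within 404 bp of a tagged 786-O peak.

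The other 10 of the 15 highest were chr9:34048431-34049788, chr8:130364992-130365705, chr5:14305094-14305688, chr6:11263392-11264096, chr8:99129086-99129807, chr9:110511960-110512568, chr1:117099238-117099718, chr9:129921271-129922138, chr9:138818388-138819137 and chr2:208195364-208196098. Across all 15, scores ranged from 178.1 to 254.7, widths from 481 to 1358 bp and distances to the nearest tagged peak from 404 to 78737 bp, with a median of 25429 bp. A tagged peak lay within 10 kb of 5 of them and within 1 kb of 2. Of all 766 MYC peaks without a tagged peak that scored 40 or more, 38.9% had one within 10 kb and 9.14% within 1 kb. None of the 15 had a parental A498 peak, and 1 of the 766 had. For the 15, the nearest tagged peak was of 786-O in all but 1, chr8:130364992-130365705. There A498 had a peak 78737 bp away and 786-O none within 182392 bp.

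Strong peaks, those that scored 40 or more, were a minority. Of the MYC peaks without a tagged peak, 766 (9.75%, 9.10 to 10.4) were strong, against 3419 (27.7%, 26.9 to 28.5) of those with one and 20.7% of the whole MYC list. Their median score was 11.7 (11.4 to 11.9), against 21.2 (20.6 to 21.6) for MYC peaks with a tagged peak. Of the MYC peaks that scored 40 or more, 18.3% (17.1 to 19.5) lacked a tagged peak, against 44.3% (43.5 to 45.0) of those that scored less. Only 3 of the 100 highest MYC peaks, 33 of the 500 highest and 88 of the 1000 highest lacked a tagged peak. The share of MYC peaks that lacked one was 55.3% (53.1 to 57.5) in the lowest 10% of MYC scores and 13.6% (12.1 to 15.1) in the highest 10%.

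The division at 40 cut through a continuous range. The peaks just above it were chr9:101136803-101137273, chr9:84636154-84636500, chr1:19772299-19772773, chr2:69525395-69525797 and chrX:153601045-153601508, with scores from 40.04 to 40.07. Their distances to a tagged peak were 34155, 178568, 38734, 8114 and 488 bp. The peaks just under it were chr6:151361993-151362513, chr9:132369685-132370152, chr11:75479245-75479916, chr6:30524802-30525260 and chr2:64833570-64834056, with scores from 39.7 to 39.9 and distances of 3342, 2385, 45650, 246 and 36419 bp. Near and far peaks stood on both sides. At the edge of the overlap rule itself, 19 MYC peaks lay 1 to 10 bp from a tagged peak and were kept, and 13 shared 1 to 10 bp with one and were not. Their median scores were 7.76 and 9.23. Within 100 bp of the edge the order was the other way, with 9.07 for the 200 that were kept and 8.68 for the 307 that were not.

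Width separated the classes more than score did. MYC peaks without a tagged peak had a median width of 300 bp (296 to 303), against 572 bp (564 to 579) for those with one. The difference was present in every 10% class of MYC score. In the highest class the medians were 600 bp (572 to 610) without and 980.5 bp (956 to 999) with a tagged peak, and in the lowest 238 bp (233 to 243) and 280 bp (273 to 293). Among the strong peaks the medians were 523 bp (505 to 540) and 889 bp (873 to 904), and among the weaker ones 285 bp (282 to 289) and 466 bp (459 to 473). A wide peak has more room to overlap another. The part this had in the width difference was not tested, and shares in a window of equal size are given below.

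**Figure D1:**
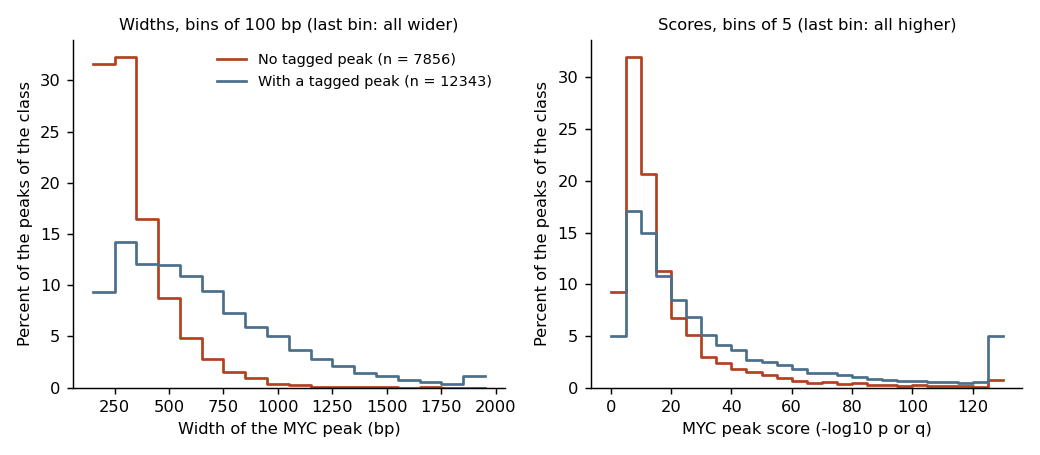
Widths (left, in bp) and scores (right, read as −log10 of a p or q) of the 7856 MYC peaks without a tagged peak and the 12343 with one, as the percent of each class per bin, the last bin holding all higher values. The peaks without a tagged peak crowd at the narrow and low end, with medians of 300 bp and 11.7 against 572 bp and 21.2.

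Among MYC peaks of like width, the share without a tagged peak was not lower at high scores than at low ones in the 3 middle width classes, and was lower in the widest. The narrowest class has no peak of 40 or more, so high scores could not be compared there. The MYC list was divided into 5 equal classes by width. The share was 67.6% (66.1 to 69.0) in the narrowest class, of 187 to 258 bp, then 58.6%, 41.9% and 20.6%, and 5.79% (5.09 to 6.56) in the widest, of 765 to 3509 bp. In the middle class, of 354 to 511 bp, the share was 39.4% (34.0 to 45.1) in the lowest 10% of MYC scores and 58.2% (49.8 to 66.3) in the highest 10%. At 511 to 765 bp it was 20.0% (12.5 to 29.5) and 24.1% (20.5 to 28.0), whose intervals overlap. In the widest class it was 4.75% (3.92 to 5.71) at scores of 40 or more and 7.16% (5.99 to 8.47) at lower scores. In the middle width class, 308 of the 574 MYC peaks that scored 40 or more (53.7%, 49.5 to 57.8) lacked a tagged peak. That share was above the 40% (38.4 to 41.7) of weaker peaks in the same class and the 38.9% of the whole list. Other width classes differed. Of strong peaks, 62 of 91 (68.1%) lacked a tagged peak at 258 to 354 bp. At 511 to 765 bp it was 287 of 1227 (23.4%), below the whole list. In the widest class it was 109 of 2293.

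Median scores at like width lay nearer to each other than in the whole list. In the class of 354 to 511 bp, strong MYC peaks without a tagged peak had a median score of 53.0, against 52.7 for strong ones with a tagged peak, and in the class of 511 to 765 bp the medians were 62.6 and 62.2. Strong peaks without a tagged peak scored lower in the class of 258 to 354 bp, at 47.5 against 50.9, and in the widest class, at 72.7 against 77.1. Below 40 they scored higher in the 3 narrower classes, with medians of 8.13 against 7.45, 12.1 against 10.9, and 15.1 against 13.7. The lower scores of the MYC peaks without a tagged peak in the whole list went together with their narrowness.

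**Figure D2:**
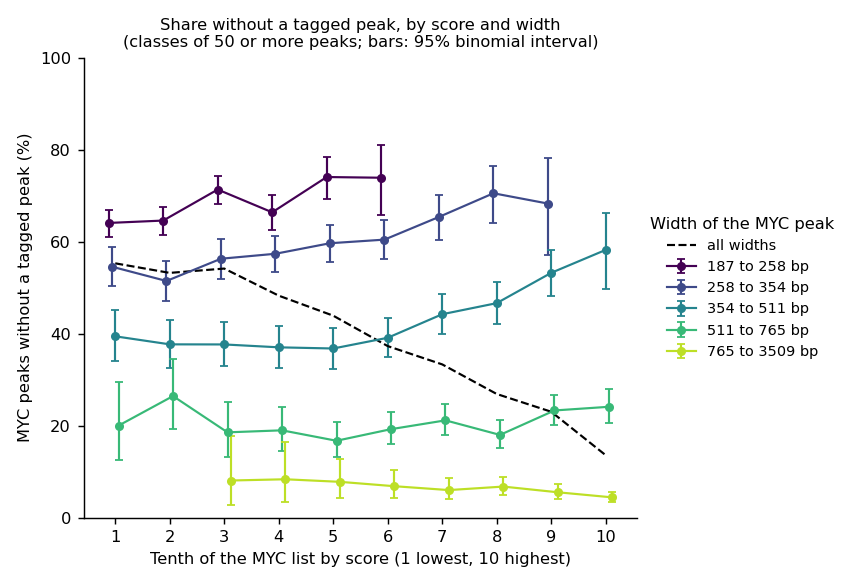
Percent of MYC peaks without a tagged peak (vertical axis) in 10 equal classes of MYC score (horizontal axis), drawn separately for 5 equal classes of width and, dashed, for all widths; bars are 95% binomial intervals, and classes under 50 peaks are not drawn. The dashed line falls across the score classes to 13.6% in the highest, while at 354 to 511 bp the share is 58.2% in the highest class and 39.4% in the lowest.

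To give every MYC peak the same room to overlap, an equal window of 187 bp, the narrowest MYC peak, was laid on the middle of every MYC peak. This comparison was added after the widths had been seen. Tagged peaks kept their own widths, so any advantage of a wide tagged peak remained. The share whose window held no tagged peak was 67.9% (66.4 to 69.3) in the narrowest class and 11.8% (10.8 to 12.8) in the widest, and 41.6% over all MYC peaks. For whole peaks the shares were 67.6%, 5.79% and 38.9%. In the highest 10% of scores the window held no tagged peak at 58.9% (50.5 to 67.0) of peaks of 354 to 511 bp and 9.76% (8.23 to 11.5) of those of 765 bp or more.

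Both tagged libraries showed this order, each by itself. The window on the MYC midpoint held a tagged 786-O peak at 32.0% (30.6 to 33.5) of the narrowest and 88.1% (87.0 to 89.1) of the widest MYC peaks, and a tagged A498 peak at 3.99% (3.40 to 4.63) and 29.9% (28.4 to 31.3). Parental 786-O GFP peaks showed the same order at a lower level, 2.50% and 13.5%. Parental A498 peaks differed less, 0.668% (0.441 to 0.971) and 1.14% (0.835 to 1.52), with intervals that overlap.

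The widest MYC peaks without a tagged peak were exceptions to this order. They were chr1:154946088-154947803 (1716 bp, score 34.3), chr12:104323504-104324995 (1492 bp, score 51.5), chr2:99528854-99530339 (1486 bp, score 25.8), chr6:43977794-43979235 (1442 bp, score 24.0) and chr10:81058555-81059979 (1425 bp, score 72.9). The second of them lay 44 bp from a tagged 786-O peak, while the third lay 53505 bp from any tagged peak and had no other MYC peak within 50 kb.

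The 786-O list did nearly all of the selecting. Tagged 786-O peaks were found at 12307 MYC peaks (60.9%), of which 3434 also had a tagged A498 peak. Another 36 MYC peaks (0.178%, 0.125 to 0.247) had a tagged peak in A498 alone. These 36 had a median score of 12.9. The MYC peaks with both tagged peaks had medians of 30.3 in score and 768 bp in width, and those with a tagged 786-O peak alone 18.3 and 510 bp. In score and in width the order of the 3 larger classes was both lines, 786-O alone, neither.

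Most MYC peaks without a tagged peak lay kilobases away from one. The median distance, from edge to edge, was 16698 bp (15798 to 17581), and the range ran from 1 to 1914843 bp. This value depends on what counts as shared. With the upper 50% of each tagged list, the median distance to a peak of those shortened lists was 40575.5 bp. It was 3452 bp if only 50% reciprocal overlap counted and 6672 bp with midpoints within 200 bp. Under the reciprocal and midpoint rules the class also takes in MYC peaks that overlap a tagged peak. Those enter with no distance and lower the median, so these medians do not describe peaks clear of any tagged peak. Under the 1 bp rule, a tagged peak lay within 1 kb of 1170 of the 7856 (14.9%, 14.1 to 15.7), within 10 kb of 39.8% and within 100 kb of 88.5%. The remaining 903 (11.5%) were more than 100 kb from any tagged peak. Where a tagged peak lay within 1 kb, it was of 786-O in 1124 of 1170 cases, and in 737 (63.0%) that tagged peak itself overlapped another MYC peak. The median score of those 1124 neighbours was 11.3, against 13.1 for the whole tagged 786-O list. That list is also the longer one, with 20034 peaks against 7718 for tagged A498. The share of all tagged peaks that overlap a MYC peak was not computed, so the 63.0% cannot be read as particular to these neighbours.

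Strong and weaker members of the class differed in how often a tagged peak was close by. A tagged peak lay within 1 kb of 70 of the 766 that scored 40 or more (9.14%, 7.19 to 11.4) and of 1100 of the 7090 that scored less (15.5%, 14.7 to 16.4). At 10 kb the shares were 38.9% (35.4 to 42.5) and 39.9% (38.7 to 41.0), whose intervals overlap. The median distances were 15545 bp (13062 to 18724) and 16751 bp (15853 to 17780).

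**Figure D3:**
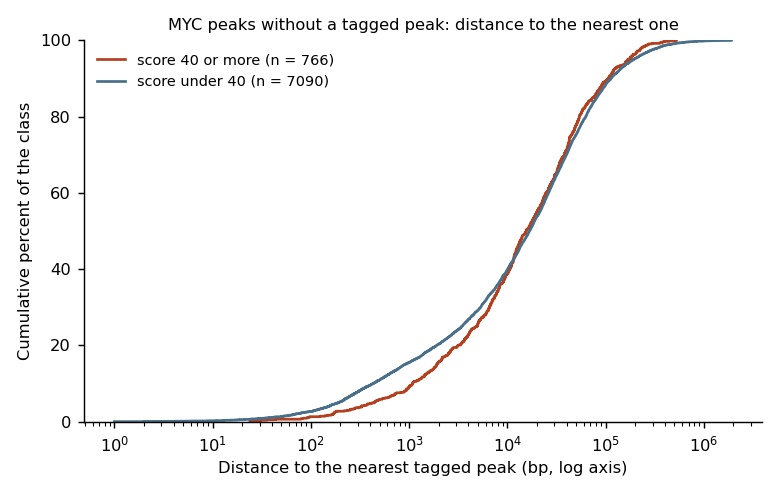
Cumulative percent of MYC peaks without a tagged peak (vertical axis) against the distance to the nearest tagged peak of either line (bp, log axis), for the 766 that scored 40 or more and the 7090 that scored under 40. The curves run apart below about 1 kb, where they stand at 9.14% and 15.5%, and meet at 10 kb, at 38.9% and 39.9%.

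Among the strong peaks, the nearest to a tagged peak were chr19:6373189-6373784 (24 bp), chr14:23398328-23398773 (28 bp), chr1:45187723-45188143 (31 bp), chr1:169455200-169455590 (36 bp) and chr12:104323504-104324995 (44 bp). The one at chr1:45187723-45188143 had a score of 157.6 and a tagged peak of A498 79 bp away as well. At the other end, chr1:245951557-245952100 (score 69.2) was 526126 bp from any tagged peak, the only strong one beyond 500 kb. It was followed by chr7:40756865-40757273 at 440051 bp, chr8:6170859-6171482 at 394422 bp, chr14:66258834-66259219 at 379040 bp and chr4:102898278-102898666 at 366890 bp. None of these 5 distant peaks had another MYC peak within 50 kb.

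For some distances to neighbouring peaks the intervals overlapped those of other MYC peaks, and for some they did not. The intervals treat peaks as independent, so neither outcome is a test of a difference. The nearest tagged peak that did not overlap lay at a median of 16698 bp (15798 to 17581) from MYC peaks without a tagged peak and at 17291 bp (16618 to 17948) from those with one, and the intervals overlap. For tagged 786-O peaks alone it was nearer, at 17792.5 bp (16801 to 18700) against 19600.5 bp (18812 to 20406). Within 50 kb a MYC peak without a tagged peak had a median of 1 tagged 786-O peak and one with a tagged peak had 2, a count that includes the overlapping peak itself. The median number of other MYC peaks within 50 kb was 2 in both classes. The nearest other MYC peak was at 12672.5 bp (12043 to 13370) and at 13513 bp (12708 to 14322), with overlapping intervals. Among strong peaks it was nearer without a tagged peak, at 12388.5 bp (11111 to 14241), than with one, at 16565 bp (15201 to 17645). Over all scores, the lower quartile of this distance was 2332 bp without and 1140.5 bp with a tagged peak. Among strong peaks its order was the other way, at 2841 bp without and 3373.75 bp with one.

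A MYC peak without a tagged peak was followed by another of its kind more often than other MYC peaks were. When the next MYC peak along the chromosome lay within 5 kb, it lacked a tagged peak in 46.9% (44.4 to 49.4) of cases after a MYC peak without one and in 30.5% (28.7 to 32.4) after a MYC peak with one. For next peaks within 50 kb the shares were 46.3% (44.9 to 47.8) and 34.5% (33.4 to 35.7), around the 38.9% of the whole list. Neighbours share their stretch of chromatin and are not independent.

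The longest unbroken row of MYC peaks without a tagged peak had 13 peaks, between 126569593 and 127549065 on chromosome 8, with a median score of 9.52 and 1 peak of 40 or more. Rows of 11 stood on chromosome 1 from 203377573 to 203540264, chromosome 2 from 236674050 to 237784822, chromosome 9 from 137326738 to 137517011 and chromosome 19 from 38471344 to 38781608. The row on chromosome 19 had the highest median score of these 5, 28.6, with a top score of 109.3 and 4 peaks of 40 or more within 310.3 kb. The longest row of MYC peaks with a tagged peak had 27, on chromosome 5 from 179125361 to 180650691.

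In bins of 1 Mb, MYC peaks without a tagged peak were spread widely. Of the 2330 bins with a MYC peak, 1966 held at least 1 of them. Among the 755 bins with 10 or more MYC peaks the median share was 38.5%, with 20% or less in the lowest 10% of bins and 60% or more in the highest 10%. No such bin consisted of them entirely, and 4 held none. The highest share was 9 of 10, on chromosome 2 from 237 to 238 Mb, and the most in number, 23 of 73, were on chromosome 19 from 1 to 2 Mb. Chromosome 19 from 38 to 39 Mb held 18 among its 27 MYC peaks, 5 of them strong, beside 13 tagged 786-O and 0 tagged A498 peaks. The 4 bins with none were on chromosome 16 from 58 to 59 Mb and from 28 to 29 Mb, chromosome 11 from 59 to 60 Mb and chromosome 14 from 35 to 36 Mb. Only 73 MYC peaks without a tagged peak lay in bins that had no tagged peak at all.

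GFP peaks of untagged cells, the background of the antibody, were scarce at these sites. A parental 786-O GFP peak overlapped 126 of the 7856 (1.60%, 1.34 to 1.91), against 1813 of the 12343 MYC peaks with a tagged peak (14.7%, 14.1 to 15.3) and 9.6% of the whole MYC list. If only 50% reciprocal overlap with a tagged peak counted as shared, the share among MYC peaks without one was 4.48%, with midpoints within 200 bp 4.45%, and with the upper 50% of each tagged list 3.60%. The tagged and parental lists share the GFP antibody, so the MYC peaks with a tagged peak were themselves chosen by a library of that antibody. One control library served both for MYC and for GFP in parental 786-O. Among peaks that scored 40 or more the shares were 2.22% (1.30 to 3.53) and 23.5% (22.1 to 24.97), and among the weaker ones 1.54% (1.26 to 1.85) and 11.3% (10.7 to 12.0).

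The gap was present at every width. In each of the 5 width classes the share with a parental 786-O peak was lower without than with a tagged peak, and the intervals did not overlap. The shares were 1.03% (0.683 to 1.48) and 5.73% (4.53 to 7.12) in the narrowest class and 5.56% (2.99 to 9.31) and 24.1% (22.7 to 25.5) in the widest.

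**Figure D4:**
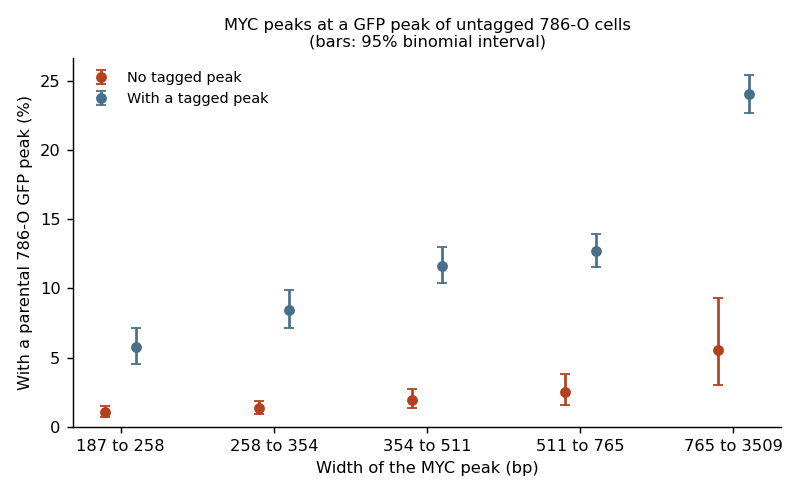
Percent of MYC peaks that overlap a GFP peak of untagged 786-O cells (vertical axis) in 5 equal classes of MYC peak width (horizontal axis, bp), for MYC peaks without and with a tagged peak; bars are 95% binomial intervals. In every width class the share is lower without a tagged peak, for example 1.03% against 5.73% in the narrowest.

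The median score of the 126 parental 786-O peaks found here was 5.38, against 6.35 for the 1799 at MYC peaks with a tagged peak and 6.56 for the whole parental list. By MYC score the leading ones after chr10:25305184-25306318 were chr11:95888812-95889633 (MYC score 81.8, parental score 4.20), chr3:127316981-127317583 (80.2 and 4.19), chr14:64854048-64855370 (77.3 and 5.68) and chr3:5036493-5037108 (72.6 and 4.93). These 4 parental peaks were low in their own list, with ranks between 2013 and 2615 of 3361.

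A parental A498 peak overlapped 7 MYC peaks without a tagged peak (0.0891%, 0.0358 to 0.184), against 242 of those with one (1.96%, 1.72 to 2.22) and 1.23% of the whole MYC list. Under the same 3 changes of rule the share among MYC peaks without a tagged peak was 0.583%, 0.524% and 0.295%. The strongest of the 7 was chr12:50419009-50419518, with a MYC score of 55.7 and a parental A498 score of 2.72. Both parental lists had a peak at 3 of the 7856 and at 0 of the 766 strong ones, which allows a share of up to 0.392% by a limit of 3 counts and 0.480% by the exact interval. One of these, chr17:42422316-42422576, had a low MYC score of 8.07 but the highest parental 786-O score of all 126, 67.5 (rank 38), with 29.6 in parental A498. At that site both untagged libraries had a GFP peak and neither tagged library did.

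By chromosome, the share of MYC peaks without a tagged peak ranged from 33.5% (30.6 to 36.5) on chromosome 7 to 48.2% (42.0 to 54.6) on chromosome 21. Of 23 chromosomes (1 to 22 and X), 11 had an interval that held the 38.9% of the whole list. The interval lay above it on 7, namely 2, 8, 9, 10, 18, 21 and 22, and below it on 5, namely 4, 7, 16, 19 and X. Chromosome 10 stood at 44.1% (41.0 to 47.2) and chromosome 2 at 42.8% (40.3 to 45.4). Chromosome 16 stood at 33.8% (30.7 to 37.0) and chromosome 19 at 34.9% (32.1 to 37.8).

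The A498 list had little part in this order, since with the tagged 786-O list alone the shares were 33.6% on chromosome 7 and 48.6% on chromosome 21. The median width of all MYC peaks of a chromosome ranged from 387 to 453.5 bp, and was 447 bp on chromosome 7 and 416 bp on chromosome 21. Chromosome 22, with the widest median, was nonetheless above the whole list, at 43.3% (39.3 to 47.3). The number of tagged peaks also differed. Tagged 786-O peaks outnumbered MYC peaks on chromosomes 4, 7, 19 and X, all below the whole list, but not on 16, which was below it too. On chromosomes 2, 8, 9, 10, 18, 21 and 22, above the whole list, they were fewer than MYC peaks. Chromosome 7 had 1179 beside 1012 MYC peaks, and chromosome 21 had 234 beside 255. Whether these numbers made the order was not tested.

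Among strong MYC peaks fewer chromosomes had an interval that left out the value of the whole. Strong peaks were fewer, from 57 on chromosome 18 to 449 on chromosome 1, so the intervals were wider. With 23 intervals of 95%, some can leave out that value by counting error alone. The share without a tagged peak was 18.3% (17.1 to 19.5) over all 4185. The interval lay above it on chromosome 15 alone, at 27.6% (19.7 to 36.7) or 32 of 116, and below it on chromosome 16 alone, at 12.8% (8.54 to 18.2) or 26 of 203. Chromosome 21 was at 19.4% (10.4 to 31.4), near the whole, although it had the highest share over all scores. The 21 MYC peaks outside these chromosomes held 7 without a tagged peak.

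**Figure D5:**
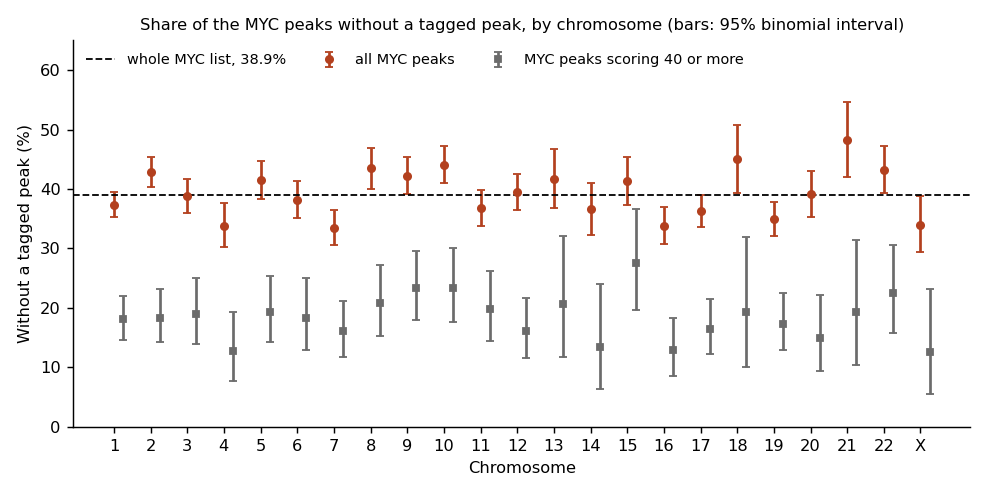
Percent of the MYC peaks of each chromosome without a tagged peak (vertical axis), for all MYC peaks (circles) and those that scored 40 or more (squares); bars are 95% binomial intervals and the dashed line is the 38.9% of the whole MYC list. Chromosome 7 is lowest at 33.5% and chromosome 21 highest at 48.2% over all MYC peaks, and the squares lie below the circles on every chromosome.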

How the data were processed

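The series has 9 samples, of which 5 have a peak list and 4 are inputs that entered only as the authors' controls. The tools were BWA and MACS2 and the build hg19, per the submitters' processing notes; tool settings are not stated there. Each deposited list gives position and a score from the authors, read here as the −log10 of a p or q value. This reading rests on where the lists begin, between 2.00 and 2.03, as a threshold of 0.01 would give. The peak names in the deposited files show 1 control library per list, common to the MYC and parental 786-O lists. Peaks carry no read counts, so depth is unknown; chromatin was sheared to about 500 bp, which limits how finely neighbouring sites can be told apart.

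Overlap meant 1 shared base or more and was computed with Python 3.11.15, numpy 2.4.6, pandas 2.3.3 and scipy 1.17.1, and drawn with matplotlib 3.10.9. The rules were tested on simulated data (0 of 5000 peaks wrong) and gave the same 7856 peaks as bedtools 2.31.1. Shares have exact (Clopper-Pearson) 95% intervals and medians have intervals from order statistics; both treat peaks as independent. With 1 library per group there is no test and no p-value. Width classes hold 20% and score classes 10% of the MYC list each; ties were placed by order in the list. Named peaks are the 15 of highest score, the 5 on each side of a score of 40, the 5 strong ones nearest and farthest, the 5 widest and the 5 strongest with a parental peak. The class, its threshold and the lists were chosen with earlier results of these data known. Genes, promoters, motifs and sequences were not analysed here, since they need an hg19 annotation.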

Additional observations from a re-analysis of the deposited data

How the results depend on the processing

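Of 94 recomputed values, 44 stayed within the 95% interval of the reported one and 50 left it. In all 74 that have a counterpart among other MYC peaks, or for chromosomes 7 and 21 among the other chromosomes, the direction was kept. Chromosomes 7 and 21 had the lowest and highest shares in these same lists, which every alternative drew on. Their kept direction is therefore no independent check. The share of MYC peaks without a tagged peak (38.9%) was 58.6% under 50% reciprocal overlap, 52.0% with midpoints within 200 bp, 33.1% when a tagged peak within 1 kb counted as shared, 58.7% with the upper 50% of each tagged list, 26.8% in the upper 50% of the MYC list, 39.9% without the widest 1% of peaks and 41.6% with the equal window, chosen after seeing the data. Under reciprocal overlap, midpoints and the upper tagged lists, the share that scored 40 or more was 13.4%, 13.97% and 12.9%, that with a parental 786-O peak 4.48%, 4.45% and 3.60%, that with a parental A498 peak 0.583%, 0.524% and 0.295%, the median score 12.6, 12.97 and 12.9, the median width 331, 333 and 334 bp, the median distance 3452, 6672 and 40575.5 bp, the share on chromosome 7 51.4%, 46.4% and 49.2%, and that on chromosome 21 65.5%, 59.6% and 69.0%. With the 1 kb rule the median score was 11.95, the median distance 23582 bp and chromosome 7 28.3%. In the upper 50% of the MYC list the strong share was 28.3%, the median score 27.8, the median width 411 bp, the median distance 17682 bp, and chromosomes 7 and 21 22.5% and 36.2%. With the equal window the strong share was 11.1%, the parental 786-O share 2.08%, the median score 12.1, the median width 310 bp and the median distance 13896.5 bp. The tagged 786-O list alone gave a median distance of 17798 bp. Score thresholds of 30 and 60 gave 15.1% and 4.37%. A parental 786-O peak within 1 kb was found at 3.79%, and one of 50% reciprocal overlap at 0.535%. The rules on overlap, thresholds and halved lists change these values by construction, and other causes were not tested. Under reciprocal overlap, midpoints and the equal window, the class includes MYC peaks that overlap a tagged peak. Such peaks enter the median distance with no distance and lower it. Leaving out contigs or the 41 bins of 1 Mb dense in parental peaks moved none of the 18 values out of its interval. The planned promoter window and E-box alternatives were not run. No paired analysis was possible because each group is 1 library.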
